A study of Rattus norvegicus with 12 samples.

Results

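Plasminogen activators, metalloproteases and their inhibitors were followed as 9 genes in the rat forebrain: the activators Plat and Plau, the urokinase receptor Plaur, the inhibitor Serpini1, the proteases Mmp9 and Adamts1, and the inhibitors Timp1, Timp2 and Timp3. They were taken as every probe set of the array whose annotation names exactly 1 gene, that gene being on this list, which gave 17 of 31042 transcript probe sets and 9 of 14217 genes. The study compared 6 control rats, kept in a standard laboratory cage, with 6 exposed rats, moved for 3 hours into surroundings unknown to them that held objects varied in shape and colour. All 12 animals were male Long Evans rats of 6 weeks, housed individually for several days beforehand, and the labels name no drug and no engineered allele. Each animal gave 1 array of total forebrain RNA, so every p-value measures the spread between animals. The forebrain was taken whole, and in such bulk RNA fewer cells of a type and less RNA per cell cannot be told apart.

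Extracellular proteases cut the matrix and the surface proteins between cells. Tissue plasminogen activator (Plat) and urokinase (Plau) turn plasminogen into plasmin, a broad protease, and neuroserpin (Serpini1) blocks tissue plasminogen activator in the brain. Metalloproteases such as Mmp9 are made as inactive precursors and are held in check by the tissue inhibitors (Timp1 to Timp3), and this system is known for its part in synaptic remodelling, in which Plat, Mmp9 and Timp1 have been described as genes that neuronal activity induces. How the family's RNA stood after the exposure is the question put to the data here.

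None of the 17 probe sets passed the limma test of exposed against control animals, with p-values adjusted by Benjamini and Hochberg over all 31042 probe sets and a threshold of 0.05. Higher calls were 0 of 17 beside a background of 1.97% of all probe sets (610), and lower calls 0 of 17 beside 0.599% (186), so that with 17 probe sets a count of 0 lies near the background. At an unadjusted p under 0.05 there were 5 of the 17, and 4094 of all 31042. The median log2 change, exposed minus control, was 0.02 over the 17 and 0.00 over all probe sets. By the brightest probe set of each of the 9 genes the median was 0.10, with 7 changes positive and 1 negative. Of these 9, 3 had an unadjusted p under 0.05 in limma. The same measure over the brightest probe set of every gene was not counted. Of the 17, 10 changes were positive, 3 were negative and 4 were 0, the last being those under the intensity floor on every one of the 12 arrays. Over all 31042 probe sets 12119 changes were positive and 13707 negative. Timp1 had the smallest adjusted p (0.0679 in limma) and the largest change of the 17, 1.30-fold. In no member were all 6 exposed animals above every control animal, or all 6 below, which happened for 1.98% and 0.725% of all probe sets.

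The exposure itself was plain in these arrays. Fos, Egr1 and Arc, genes transcribed when neurons fire, were higher by 2.77, 1.27 and 2.57 on the log2 scale, each past the threshold in limma, and for each the exposed animals lay above every control animal. Median array intensity ran from 235 to 245 over the 12 animals. For RNA quality, the signal of control probes at the 5 prime end was taken from that at the 3 prime end (log2). In the controls this excess averaged 0.39 ± 0.05 (SD over 6 arrays), and after exposure 0.45 ± 0.07. Neuron and astrocyte markers were present: each of 12 neuron markers and 10 astrocyte markers was above the floor on at least 1 array. This does not test the brain region. Intensities are the deposited ones, in arbitrary linear units. They were raised to a floor of 53.8 before the test, below which values were given no order. Each probe set has its own response, so intensities of different probe sets are not read as relative amounts of RNA. They served to pick the brightest probe set of a gene. Sums of marker intensities are given by group only, and the bright probe sets weigh most in every such sum.

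Because Timp1 and Timp3 came closest to the threshold, the stretch around their start sites is shown, from 250 bases before to 50 after the start in RefSeq (rat build GRCr8), 5′ to 3′. That of Plaur is added because it alone of the 7 members with an entry held a searched motif, set in capitals. The Timp1 window lies on the minus strand at chrX:3771073-3771372, within the gene's annotated span, the Timp3 window on the minus strand at chr7:19459509-19459808, and the Plaur window on the plus strand at chr1:89181113-89181412.
Timp1: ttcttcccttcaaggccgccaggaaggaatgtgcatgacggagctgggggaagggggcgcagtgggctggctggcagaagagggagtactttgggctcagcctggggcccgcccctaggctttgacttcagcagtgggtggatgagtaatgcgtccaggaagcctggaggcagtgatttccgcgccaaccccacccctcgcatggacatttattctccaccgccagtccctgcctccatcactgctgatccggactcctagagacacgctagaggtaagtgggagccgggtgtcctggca
Timp3: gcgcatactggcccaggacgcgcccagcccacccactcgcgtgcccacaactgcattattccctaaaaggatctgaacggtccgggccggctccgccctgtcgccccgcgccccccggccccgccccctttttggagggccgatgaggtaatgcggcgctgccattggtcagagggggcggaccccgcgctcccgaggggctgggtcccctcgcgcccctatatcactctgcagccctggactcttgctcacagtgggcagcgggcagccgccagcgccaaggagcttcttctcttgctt
Plaur: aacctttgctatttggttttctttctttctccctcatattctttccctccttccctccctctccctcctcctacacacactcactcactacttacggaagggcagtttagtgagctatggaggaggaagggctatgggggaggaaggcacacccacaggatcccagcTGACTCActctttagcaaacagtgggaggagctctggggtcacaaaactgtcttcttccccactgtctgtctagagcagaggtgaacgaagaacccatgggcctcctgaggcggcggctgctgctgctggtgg

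The letters searched on both strands were TGANTCA, which the AP-1 factors (Fos with Jun) bind, TGACGTCA, the full cyclic AMP response element, and GCGTGGGCG, which Egr factors bind. With only 1 match in the windows shown, no marked stretches could overlap. Plat and Mmp9 had no entry among the windows and were not searched. The AP-1 letters were in 1 of 7 member windows, that of Plaur, where the first letter lies at -83 from the start, and in 7.33% of all 33469 windows in the table. The other two motifs were in 0 of 7, beside 1.83% and 0.544% of all windows. A match describes letters only, and its absence concerns only these letters in these windows. Plaur, whose window holds the AP-1 letters, was at or near the floor in the arrays, as given below with its values.

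Plat, the tissue plasminogen activator that neurons and endothelial cells release, was measured by 1 probe set (1367800_at). Its intensity was 999 at the lowest, 1084 at the median and 1200.5 at the highest in control animals, against 1089, 1170.2 and 1331 in exposed animals. The groups overlapped, and only exposed animal 1 lay above every control. Its log2 change was 0.11 ± 0.05 (SE, 6 animals per group; 1.08-fold, adjusted p = 0.373 in limma). The 95% interval of the fold change ran from 1.00 to 1.17. Without exposed animal 1 the log2 change was 0.08. It was 0.07 between the animals numbered 1 to 3 and 0.15 between those numbered 4 to 6. The labels give these numbers no meaning, and the difference was not tested.

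Plau, which codes for urokinase, stayed under the floor of 53.8 on all 12 arrays with both of its probe sets. The deposited values of 1387675_at ran from 32.1 to 36.6 in control and from 30.2 to 37.7 in exposed animals. Those of 1398287_at ran from 28.2 to 32.8 and from 30.9 to 37.9. No change can be read from either probe set at this brightness, in one direction or the other. Plau was the 1 gene of the 9 with every probe set at the floor.

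Plaur, the receptor that holds urokinase at the cell surface, was also dim. With 1387269_s_at the deposited values were 35.6, 41.7 and 50.1 (lowest, median and highest) in control animals and 44.3, 47.2 and 58.7 in exposed animals. Only exposed animals 4 and 5 exceeded the floor, so 10 of 12 values entered the test as the floor itself, and the log2 change of 0.02 ± 0.02 (adjusted p = 0.782 in limma) says little about the gene. Without any floor the log2 change of this probe set was 0.24 (adjusted p = 0.198 in limma). The second probe set, 1371286_at, stayed between 19.5 and 25.8 on all 12 arrays.

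Serpini1 codes for neuroserpin, the inhibitor that neurons secrete against tissue plasminogen activator, and was well above the floor with both probe sets. With 1368256_at, the brighter, intensities were 3197, 3256 and 3556 in control and 2981, 3257 and 3502 in exposed animals, a log2 change of -0.04 ± 0.04 (adjusted p = 0.824 in limma). The medians of the groups were nearly equal and the ranges overlapped, with exposed animals 2 and 3 below every control. With 1387131_at they were 2607, 2781 and 3006 in control and 2188, 2445 and 2877 in exposed animals, a log2 change of -0.15 ± 0.06 (1.11-fold lower, adjusted p = 0.329 in limma). Here 4 of 6 exposed animals were below every control, with exposed animal 3 lowest. The difference between the probe sets did not pass (adjusted p = 0.561 in limma over 6609 pairs of probe sets of 1 gene). Exposed animal 3 also had the highest 3 prime excess of the 12 arrays, 0.59. Without exposed animal 3 the log2 change at 1387131_at was -0.11. With the 3 prime excess as a covariate it was -0.05 (adjusted p = 0.804 in limma). The excess averaged 0.39 in control and 0.45 in exposed animals, so this covariate partly follows the group. The part of RNA quality in the Serpini1 values was not tested.

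**Figure D1:**
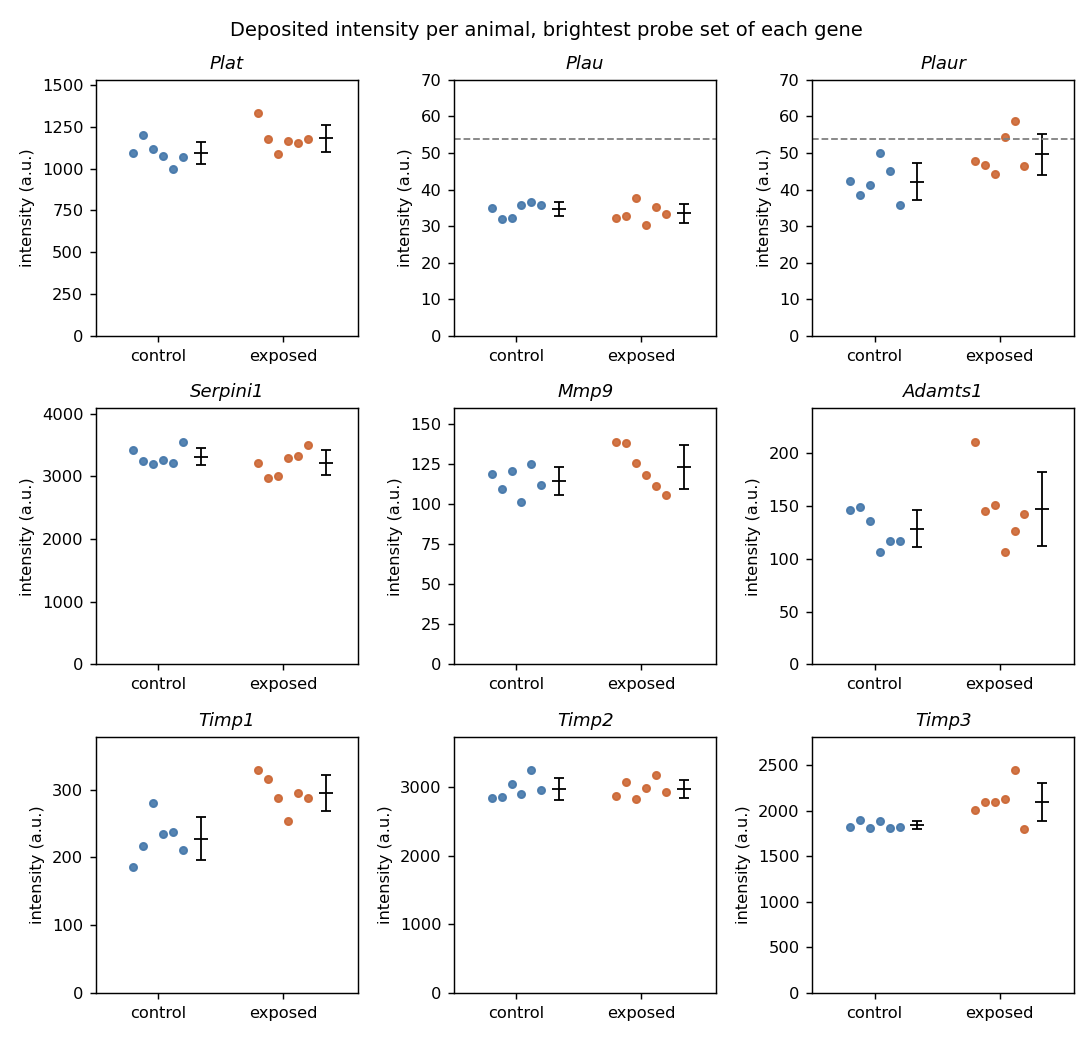
Deposited intensity (arbitrary linear units) of the brightest probe set of each of the 9 genes in each of 6 control and 6 exposed animals. Points are animals, bars are the mean and SD, and the dashed line is the floor of 53.8. The groups overlap in every panel, with Timp1 (5 of 6 exposed animals above every control) and Timp3 (5 of 6) the most apart.

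Mmp9, gelatinase B, was measured above the floor by 1398275_at only. Intensities were 101, 115 and 125 in control and 106, 122 and 139 in exposed animals, with 3 of 6 exposed animals above every control. The log2 change was 0.10 ± 0.08 (1.07-fold, adjusted p = 0.732 in limma), and its 95% interval ran from 0.951-fold to 1.21-fold. Those 3 animals were the ones numbered 1 to 3, among which the change was 0.21, while it was -0.01 between the animals numbered 4 to 6. The meaning of the numbers is not labelled, and the difference between these changes was not tested. The other probe set, 1369166_at, lay between 40.2 and 50.2, under the floor on all 12 arrays. Blood cells and neutrophils carry Mmp9 as well. Of 12 markers of these cells 7 were measured and 0 passed in limma (1 at an unadjusted p under 0.05). Their summed intensity was 12808 to 17900 in control and 13543 to 15931 in exposed animals. Hbb alone read 12128 to 16794 in control and 12823 to 14960 in exposed animals, so the sum says little about neutrophils. Of the neutrophil genes, Mmp8 was at the floor on all arrays, S100a8 on 11, Lcn2 on 9, Camp on 2 and S100a9 on 1. Mpo, Elane, Ngp and Ltf were not measured. The part of these cells in the Mmp9 values was not tested.

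Adamts1, a secreted protease that cuts proteoglycans such as aggrecan and versican, had the largest standard error of the members. Intensities with 1368223_at were 106, 127 and 149 in control and 107, 144 and 211 in exposed animals. Exposed animal 1 held the highest value by far, and 2 of 6 exposed animals were above every control. The log2 change was 0.17 ± 0.15 (1.13-fold, adjusted p = 0.787 in limma), with a 95% interval from 0.896-fold to 1.42-fold. Without exposed animal 1 it was 0.06, and with the RNA quality covariate it was also 0.06.

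Timp1, the inhibitor of metalloproteases that is known for its induction in many tissues, showed the widest separation of the groups. Its probe set, 1367712_at, read 185, 225 and 279.6 (lowest, median and highest) in control animals and 254, 291 and 329 in exposed animals. All but 1 of the exposed animals lay above every control: control animal 3, at 279.6, exceeded exposed animal 4, at 254. Mean intensity was 227 ± 31.8 (SD, n = 6) in control and 295 ± 26.2 in exposed animals. The log2 change was 0.38 ± 0.09 (1.30-fold, 95% interval 1.13 to 1.51), and its adjusted p of 0.0679 in limma missed the threshold. It was 0.47 between the animals numbered 1 to 3 and 0.29 between those numbered 4 to 6, a difference that was not tested.

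The call for Timp1 turned on how dim probe sets were treated and on 1 control animal. In limma the adjusted p was 0.0344 when 5216 probe sets that never exceeded the floor were left out, 0.0196 when the dimmest 40% were left out and 0.0250 with no floor, each with the same log2 change of 0.38. Without control animal 3 the change was 0.44 and the adjusted p 0.0241. Over all 27 alternatives it passed in 4, its adjusted p ran from 0.0196 to 0.234, and the change ran from 0.32 to 0.44. The highest p came with the replicate number as a block.

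Timp2, which inhibits metalloproteases and helps to activate pro-Mmp2 at the cell surface, had nearly equal medians in both groups with each of its probe sets. With 1386940_at intensities were 2843, 2921 and 3244 in control and 2829, 2951 and 3169 in exposed animals. The log2 change was 0.00 ± 0.04 with a 95% interval from 0.945-fold to 1.06-fold, the narrowest of the members above the floor on every array. With 1367823_at they were 1208, 1287 and 1327 against 1109, 1261 and 1547, a log2 change of 0.03 ± 0.07. In that probe set the exposed animals spread wider, on both sides of the controls, with SDs of 169 and 43.1.

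Timp3, the inhibitor that stays bound to the matrix and also blocks ADAM proteases, was measured by 4 probe sets. With 1389836_a_at intensities were 1808, 1823 and 1901 in control and 1796, 2099 and 2446 in exposed animals. Of the exposed animals 5 lay above every control and 1, animal 6, lay below every control. This gave a log2 change of 0.18 ± 0.06 (1.13-fold, adjusted p = 0.164 in limma), and leaving out exposed animal 6 gave 0.22 (adjusted p = 0.0277). With 1375138_at intensities were 1693, 1852 and 1965 in control and 1855, 2037 and 2106 in exposed animals, and 4 of 6 exposed animals were above every control. The log2 change there was 0.12 ± 0.05 (1.09-fold, adjusted p = 0.277 in limma).

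The other two Timp3 probe sets were dimmer and gave changes on either side of 0. With 1368989_at the values were 308, 328 and 404 in control and 259, 332 and 389.6 in exposed animals, a log2 change of -0.08 ± 0.10. With 1372926_at they were 264, 296 and 345 against 239, 323 and 352, a log2 change of 0.06 ± 0.10. Exposed animal 3 was the lowest of all 12 with both. Neither value was stable: over the 27 alternatives the log2 change ran from -0.13 to 0.08 at 1368989_at and from 0.03 to 0.21 at 1372926_at, where it was 0.14 without exposed animal 3, 0.03 without control 3, exposed 2 or exposed 4, 0.04 without exposed 1, 0.10 without control 4 and 0.21 with the RNA quality covariate. Neither passed in any of them. None of the 3 dimmer probe sets moved apart from 1389836_a_at (smallest adjusted p = 0.526 in limma). The same held for all 8 pairs of probe sets within a member gene, beside 60 of 6609 pairs over the whole array that did move apart.

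**Figure D2:**
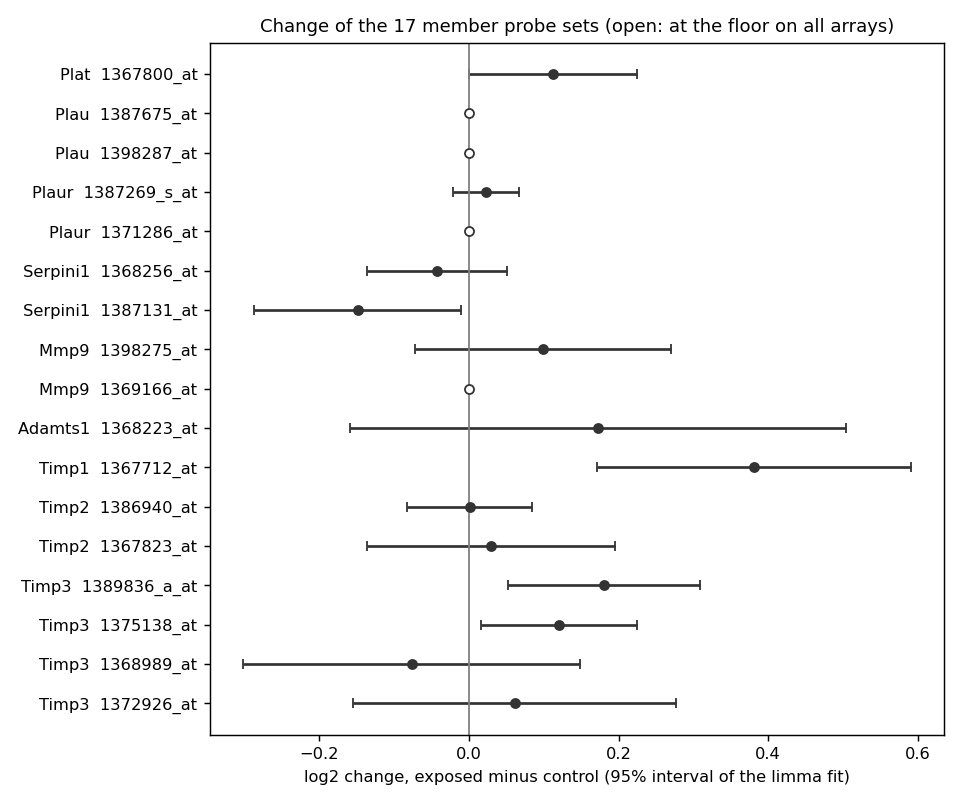
Log2 change (exposed minus control) of each of the 17 member probe sets with the 95% interval of the limma fit, 6 animals per group, unadjusted for the number of probe sets tested. Open points mark the 4 that never exceeded the floor, from which no change can be read; Timp1 (0.38) lies farthest from 0 and no probe set passed after adjustment.

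Genes around the members in extracellular proteolysis were read from 5 lists, with the brightest probe set of each gene. Of all the genes in these lists 4 passed, each of them higher: Thbd, Lrp8, Mmp17 and Lamc1. For each of these 4, at its brightest probe set, the 6 exposed animals lay above every control animal. That describes the same values that passed and is no separate support. In the list of the plasminogen and serine protease system 2 of 28 measured genes were higher and 0 lower, with a median log2 change of 0.00. In matrix metalloproteinases 1 of 16 was higher and 0 lower (median 0.00), and 8 of the 16 were at the floor on all arrays, Mmp3, Mmp7 and Mmp13 among them. In ADAM and ADAMTS proteases 0 of 24 passed (median 0.00), in other metalloprotease inhibitors 0 of 8 (median -0.07), and in matrix substrates 1 of 30 was higher and 0 lower (median 0.00). The higher calls stand beside the 1.97% of all probe sets that were higher. That share counts probe sets, 5216 of them at the floor on all arrays, whereas the lists count genes by their brightest probe set. A share over the brightest probe set of every gene was not counted. At an unadjusted p under 0.05, in either direction, there were 7 of 28 genes in the plasminogen list, 1 of 16 metalloproteinases, 2 of 24 ADAM and ADAMTS genes, 1 of 8 inhibitors and 7 of 30 matrix substrates. The same count over all probe sets was 4094 of 31042.

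Thbd codes for thrombomodulin, the surface receptor that turns thrombin from clotting to the activation of protein C. Its brightest probe set, 1375951_at, read 216, 234 and 251 in control and 303, 339 and 392 in exposed animals. Every exposed animal was thus clear of the control range. Thbd rose by 0.53 ± 0.07 on the log2 scale (1.44-fold, adjusted p = 0.00192 in limma), and it passed in all 27 alternatives. Of its dimmer probe sets 1368901_at also passed, with a log2 change of 0.43 (adjusted p = 0.0326), and 1368900_at, which was at the floor on 2 arrays, did not (0.24, adjusted p = 0.0869). Thrombomodulin is known from endothelial cells. Of 18 endothelial and mural markers 0 were higher and 1, Slco1a4, was lower, 14 of 18 changes were negative, 5 of 18 had an unadjusted p under 0.05, and their summed intensity was 12531 to 13627 in control and 12303 to 12725 in exposed animals. Slc2a1, the glucose transporter of brain endothelium, went the other way at 0.20 on the log2 scale (adjusted p = 0.093 in limma), with all 6 exposed animals above every control. None of these 18 markers was at the floor on all arrays. Over all 31042 probe sets 13707 changes were negative and 12119 positive. The part of endothelial cells in the Thbd values was not tested.

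Mmp17, a metalloprotease anchored to the membrane by a glycolipid, read 1653, 1966 and 2062 in control and 2153, 2335 and 2414 in exposed animals (1376410_at). It rose by 0.26 ± 0.05 on the log2 scale (1.20-fold, adjusted p = 0.0275 in limma). The call was lost in 9 of 27 alternatives, among them the RNA quality covariate (adjusted p = 0.115), the replicate number as a block (0.12) and leaving out control 4 with exposed animals 3 and 5 (0.0724). It was also lost without control animal 2 or 6, or exposed animal 2, 3, 4 or 5, with an adjusted p of up to 0.0644. Mmp14, which activates pro-Mmp2, was the list's next gene by p, at a log2 change of -0.16 (adjusted p = 0.423).

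Lrp8, the apolipoprotein E receptor 2 that binds reelin, read 1021, 1085 and 1130 in control and 1144, 1170.0 and 1206 in exposed animals. It rose by 0.12 ± 0.03 on the log2 scale (1.08-fold, adjusted p = 0.0350 in limma), and the call was kept in 13 of 27 alternatives. It was lost with quantile normalization (adjusted p = 0.0619), without the dimmest 40% (0.0528), with no floor (0.0832), with the RNA quality covariate (0.0949), without control 4 and exposed 3 and 5 (0.0951) and with the replicate number as a block (0.134). Leaving out control animal 1, 2 or 3, or exposed animal 1, 3, 4, 5 or 6, also ended it (adjusted p up to 0.0832). Lamc1, the gamma chain shared by most laminins of the basement membrane, read 751, 779 and 812 in control and 819.8, 844 and 887 in exposed animals. Its log2 change was 0.13 ± 0.03 (1.09-fold, adjusted p = 0.0250 in limma), kept in 19 of 27 alternatives. It was lost with no floor (adjusted p = 0.0743), with the block (0.0665), without control 4 and exposed 3 and 5 (0.0992), and without control animal 1, 2, 3 or 5, or exposed animal 1 (up to 0.0610). Its dimmer probe set did not pass (log2 change 0.10, adjusted p = 0.813). The groups of both genes lay close together without overlapping.

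**Figure D3:**
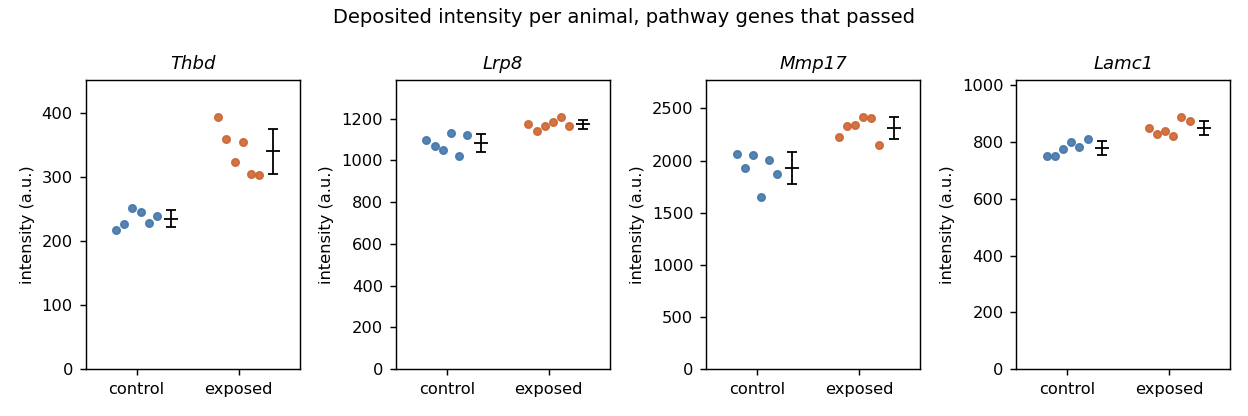
Deposited intensity (arbitrary linear units) in each of 6 control and 6 exposed animals for the 4 genes of the surrounding lists that passed, with the brightest probe set of each. Points are animals and bars the mean and SD. In each panel every exposed animal is above every control animal, and the fold change is largest for Thbd (1.44-fold).

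Other genes next to the members did not pass. S100a10, which binds tissue plasminogen activator and plasminogen at the cell surface, had a log2 change of 0.15 (adjusted p = 0.148 in limma), and Serpinh1, a collagen chaperone of the serpin family, also 0.15 (adjusted p = 0.184). Reck, a membrane-bound inhibitor of metalloproteases, was the lowest of its list at -0.23 (843 ± 101 in control and 716 ± 32.1 in exposed animals, SD, n = 6, adjusted p = 0.151). Timp4, the remaining tissue inhibitor, stood at 0.06 (adjusted p = 0.56), and Spock1, a proteoglycan that inhibits metalloproteases, at -0.13 (adjusted p = 0.406). Adam17, the protease that sheds tumor necrosis factor, stood at 0.13 (adjusted p = 0.295), and Adam15, a membrane protease of the same family, at 0.07 (adjusted p = 0.349). Adamts12 and Adamts5, relatives of Adamts1, stood at -0.14 and -0.15 (adjusted p = 0.386 and 0.43). Lamb1, the laminin beta chain that pairs with Lamc1, stood at 0.08 (adjusted p = 0.172), and Sparcl1, an astrocyte matrix protein, at -0.05 (adjusted p = 0.226).

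**Figure D4:**
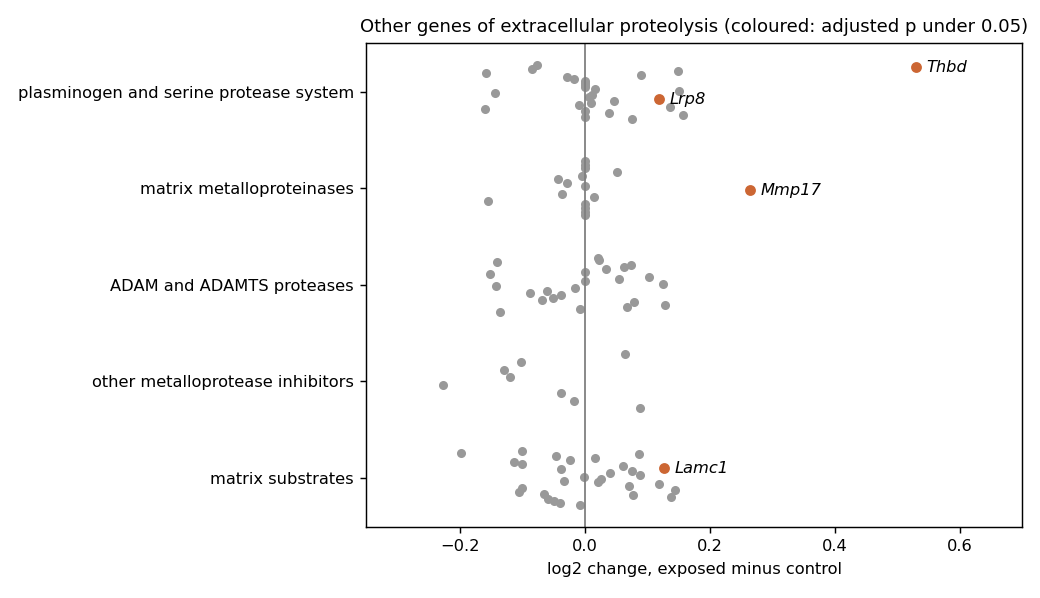
Log2 change (exposed minus control) of each measured gene of the 5 surrounding lists, by its brightest probe set, 6 animals per group. Coloured, named points passed at an adjusted p under 0.05 in limma (Thbd, Lrp8, Mmp17 and Lamc1), grey points did not; most genes lie near 0, and the points at exactly 0 are genes at the floor on all arrays.

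The cell types that make several of these proteins were followed by marker lists. Of 14 microglia and macrophage markers 0 passed (2 at an unadjusted p under 0.05), and their summed intensity was 6212 to 7077 in control and 6346 to 7219.7 in exposed animals, with Cd163 at the floor on all arrays. Of 12 markers of meninges and fibroblasts 0 passed (2 unadjusted), although all 12 changes were negative (median -0.11). Over all 31042 probe sets 13707 changes were negative and 12119 positive. The summed intensity of the 12 was 28766 to 33053 in control and 26479.9 to 30780.2 in exposed animals. Ptgds alone read 16397 to 18721 in control and 15474 to 17416 in exposed animals, so it weighed most in the sum. Astrocyte markers (10 measured) and oligodendrocyte markers (9 measured) had 0 that passed (1 each unadjusted) and medians of 0.01 and 0.00. Choroid plexus markers (8 measured) and neuron markers (12 measured) had 0 that passed in limma (0 and 3 unadjusted). The part of these cells in the values of Timp1, Timp3 and the other members was not tested.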

How the data were processed

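Each animal has 1 column of deposited linear intensities; background correction, summary of probes and normalization by the authors are not given in the sources used here. Trizol extraction, an RNeasy cleanup and Affymetrix labelling are given in the labels' protocols. Log2 medians of the 12 arrays lay within 0.06 of each other, under a limit of 0.1, so no further normalization was done. Intensities were raised to their 20th percentile and taken to log2. limma 3.58.1 (R 4.3.3; lmFit, eBayes with trend) was fitted to 31042 probe sets with the group as only term, with Benjamini-Hochberg over all of them and 57 array controls left out, and was tested on simulated data. The platform annotation gave 20832 probe sets a single symbol, 436 more than 1 and 9831 no symbol. Named are all members, up to 4 genes of smallest p and all that passed in each of 5 lists, and Fos, Egr1 and Arc. Mmp3, Mmp7, Mmp13, Mmp8, S100a8, S100a9, Lcn2, Camp, Hbb, Ptgds, Slco1a4, Slc2a1 and Cd163 were named after their values were seen. Members, lists and alternatives were chosen with earlier results of these data known. Each gene list uses the brightest probe set of a gene. Probe and protein sequences were not used here. The number of arrays limits the precision.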

Additional observations from a re-analysis of the deposited data

Results flagged for a closer look

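In 2 of the 34 groups of 6 values examined (17 probe sets, control and exposed), 1 animal stood far from the rest by Dixon's ratio, which chance gives in about 1 of 20 groups. Exposed animal 1 had a Plat intensity of 1331, above the next highest, and control animal 6 had a Plau intensity of 28.2 at 1398287_at, a value under the floor that enters the test as the floor itself.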

How the results depend on the processing

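Over 27 alternatives, 12 of which leave out 1 animal, 0 members were lower in any. The count of higher member probe sets was 1 without the dimmest 40%, without those never above the floor, with no floor, and without control animal 3 (Timp1 in each), and 1 without exposed animal 6 (Timp3); it ran from 0 to 1 over the animals left out and was 0 in the others. Signs of values near 0 turned for Timp2 (in 9 and 4 alternatives) and for Timp3 at 1368989_at (in 3). Over all probe sets, 610 were higher and 186 lower. With the replicate block these were 359 and 76, lower counts were 314 with array weights, 72 with the RNA quality covariate and 82 without control 4 and exposed 3 and 5, and from 103 to 182 with 1 animal left out. The count was over 1.5 times smaller than 186 without control 3 (103), control 5 (112), control 6 (117) and exposed 1 (106). Pairs of probe sets that moved apart, 60 in all, were 20 without the dimmest 40%, 38 without those at the floor, 118 with a floor at the 40th percentile, 96 with array weights, 15 with the replicate block and 26 without the 3 arrays; 0 member pairs did in any. The block changed no member's call, and ended those of Lrp8, Mmp17 and Lamc1. Deviations of animals with the same number correlated from -0.08 to 0.16, so the numbers were not taken as pairs. The filter and floor alternatives test fewer or differently spread probe sets; otherwise the cause was not tested. Background correction and slide could not be varied from a table of processed intensities. Probe sets under the floor (Plau, mostly Plaur, 1 of Mmp9) limit what can be read.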

Other observations

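Exposed animal 1 held the highest value of all 12 arrays in 4 of the 9 member genes by their brightest probe set: Plat (1331), Timp1 (329), Mmp9 (139) and Adamts1 (211). It also held the highest value of Thbd (392). The other surrounding genes that passed peaked elsewhere, Lrp8 and Lamc1 in exposed animal 5 and Mmp17 in exposed animal 4. How often exposed animal 1 was highest over all genes was not counted, so the 4 of 9 has no background beside it. The pattern was noticed after the values were seen and was not tested. Without exposed animal 1 the log2 change was 0.08 for Plat, 0.35 for Timp1, 0.06 for Mmp9 and 0.06 for Adamts1.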
